A study of Mus musculus with 6 samples.

Results

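The clustered protocadherins are a family of cell surface adhesion proteins encoded by adjoining gene clusters, and their RNA was measured here by bulk RNA sequencing of mouse cerebellum. Members were taken by symbol, as every row of the gene tables that starts with Pcdha, Pcdhb or Pcdhg. This rule found 59 of 24411 rows, of which 15 belong to the alpha, 22 to the beta and 22 to the gamma cluster. Of the 59 rows, 54 had enough reads to be tested, which were 11 alpha, 21 beta and 22 gamma members.

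The libraries came from mice at postnatal day 18. The mutant group held 3 libraries from mice that lack the remote enhancer of Atoh7 (Atoh7 Remote Enhancer KO, called KO), and the control group held 3 libraries from WT mice. Atoh7 encodes a transcription factor needed for retinal ganglion cells, and the deletion removes a distant regulatory element and not the gene. The sources used here do not give strain, sex or the number of animals behind each library. The labels call the replicates independent without saying what was independent, so p-values measure only the spread between these libraries, which may be technical.

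Each alpha and gamma gene has its own promoter and variable exon, which encodes the extracellular cadherin repeats, and the variable exon is spliced to constant exons shared by the whole cluster. Most beta genes have a lone coding exon and no shared constant region. A neuron uses only some of the alternate promoters, while the C-type members at the 3′ end of the alpha and gamma clusters are used more broadly. Matching sets of these proteins on touching membranes bind each other, and the gamma cluster is required for dendrites of the same cerebellar Purkinje cell to avoid each other.

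On mouse genome build GRCm38, the members lie on chromosome 18. The alpha cluster spans chr18:36930285-37188897 (259 kb), the beta cluster chr18:37264998-37521419 (256 kb) and the gamma cluster chr18:37661775-37841873 (180 kb). These positions come from the RefSeq table of that build. In the GENCODE annotation, the alternate alpha members that were tested had about 46.5% of their exon bases to themselves and the gamma members about 54.6%, as the values of Pcdha9 and Pcdhga5 show, and the remainder is the shared constant region. Reads in shared exons overlap more than 1 gene and were not counted for any, so a count of an alpha or gamma member is close to a count of its own variable exon.

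Libraries held 16340132 to 34438262 reads counted on genes. WT replicate 3 stood apart, because 63.2% of its gene reads fell on the ribosomal RNA precursor Rn45s, which left 6015125 reads on other genes. The members together had 3974 reads in WT replicate 3, against up to 24621 in the other libraries, so this library carries the largest counting error. Reads outside gene exons made up 17.3% ± 0.291 of KO libraries and 34.3% ± 3.59 of WT libraries (SD, n = 3 each), and the groups did not overlap. Atoh7 itself had 45, 54 and 92 reads in KO libraries and 72, 56 and 7 reads in WT libraries, so the groups overlapped in raw reads. The tissue entry of the labels reads retina while the design text reads cerebellum. Calb1, a calcium buffer of Purkinje cells, averaged 574 ± 43.5 CPM (counts scaled to 1000000 reads) in KO and 447 ± 41.7 CPM in WT libraries, and the photoreceptor factor Crx had 0 reads in every library. The 10 retina markers, Crx included, summed to 8.18 to 11.4 CPM in KO and 9.99 to 12.02 CPM in WT libraries.

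Levels are given as CPM after TMM scaling of library sizes (trimmed mean of M values), and differences as log2 of KO over WT with an approximate standard error (SE). A gene was called at an adjusted p under 0.05 in edgeR's quasi-likelihood test, where p was adjusted by Benjamini-Hochberg over the 15519 genes tested.

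The total of the family overlapped between genotypes. The summed level of all members was 639, 589 and 585 CPM in KO libraries and 614, 631 and 616 CPM in WT libraries, with means of 604 ± 29.8 and 620 ± 9.48 CPM (SD, n = 3 each). The KO and WT ranges overlapped for the sum of each cluster too. The alpha sum averaged 75.8 ± 2.76 CPM in KO and 72.9 ± 4.84 CPM in WT libraries. The beta sum averaged 172 ± 4.47 CPM in KO and 178 ± 8.37 CPM in WT libraries. The gamma sum averaged 356 ± 22.9 CPM in KO and 369 ± 12.5 CPM in WT libraries.

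Few members changed. Of the 54 tested, 1 rose, 4 fell and 49 did not pass, so 9.26% were called, below the 16.7% called among all tested genes. Pcdha1 rose, and Pcdha9, Pcdhga5, Pcdhgb5 and Pcdhgb8 fell. The share of members that fell was 4 of 54, against 10.2% of all tested genes, and 1 of 54 rose, against 6.43%. At an unadjusted p under 0.05 there were 14 members. Tested members had a median of 50 reads in WT replicate 3. Missing the threshold therefore does not show that a member was unchanged, and the lower share of calls may depend on depth, which was not tested. Without WT replicate 3, 1 member rose and 7 fell, where 23.4% of all genes in that fit were called and 13.2% were lower, and all 5 members of the full comparison were among these 8; Pcdha8, Pcdhb11 and Pcdhga6 were added. Of the 5 calls, that of Pcdhgb8 alone passed under all 12 alternatives tried.

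**Figure D1:**
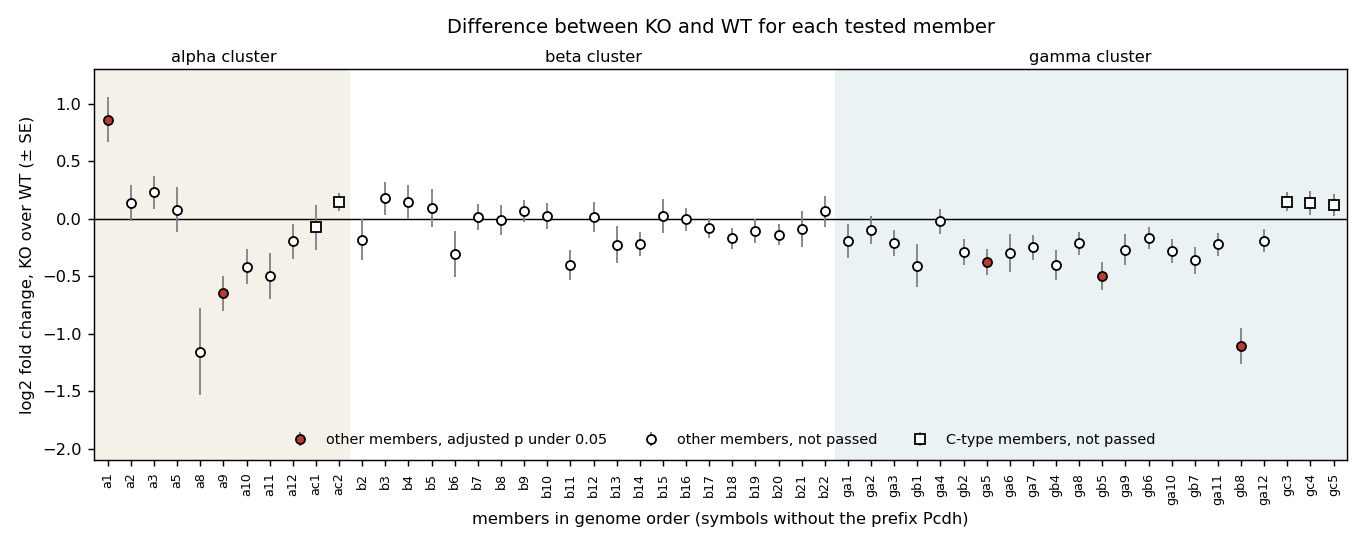
Log2 fold change of KO over WT for each of the 54 tested members in genome order, with the approximate SE as bars. Filled points passed an adjusted p of 0.05 and squares are C-type members. The 19 gamma A and B members all lie below 0, the 3 gamma C-type members lie just above it, and beta members scatter around 0.

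Levels differed far more between members than between genotypes. Lengths were the exon bases that only the gene itself holds for alpha and gamma members and the RefSeq span for beta members. Per kilobase of these, the order of the levels in KO and WT libraries had a Spearman rho of 0.963 across the 54 tested members, which share libraries and are not independent. The median coefficient of variation of a member between replicates was 9.16% in KO and 9.79% in WT libraries. Without WT replicate 3 it was 7.499% in WT libraries.

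Pcdhgc3, a C-type gamma member that binds Axin1 and promotes dendrite branching in the mouse cortex, was the most abundant member at 58.0 CPM per kb over all libraries. It had 170, 144 and 156 CPM in KO libraries and 127, 143 and 155 CPM in WT libraries, so the groups overlapped and the difference of 0.15 ± 0.09 did not pass (edgeR adjusted p = 0.26). Pcdhac2, the C-type alpha member that serotonergic axons need to spread apart, followed at 13.6 CPM per kb, and Pcdhgc4, on which the survival of many interneurons depends, at 10.2 CPM per kb. Pcdhgc5 stood at 4.64 and Pcdhac1 at 1.88 CPM per kb, within the range of the alternate members. C-type status therefore went with a high level for Pcdhgc3, Pcdhac2 and Pcdhgc4 and not for the other C-type members.

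**Figure D2:**
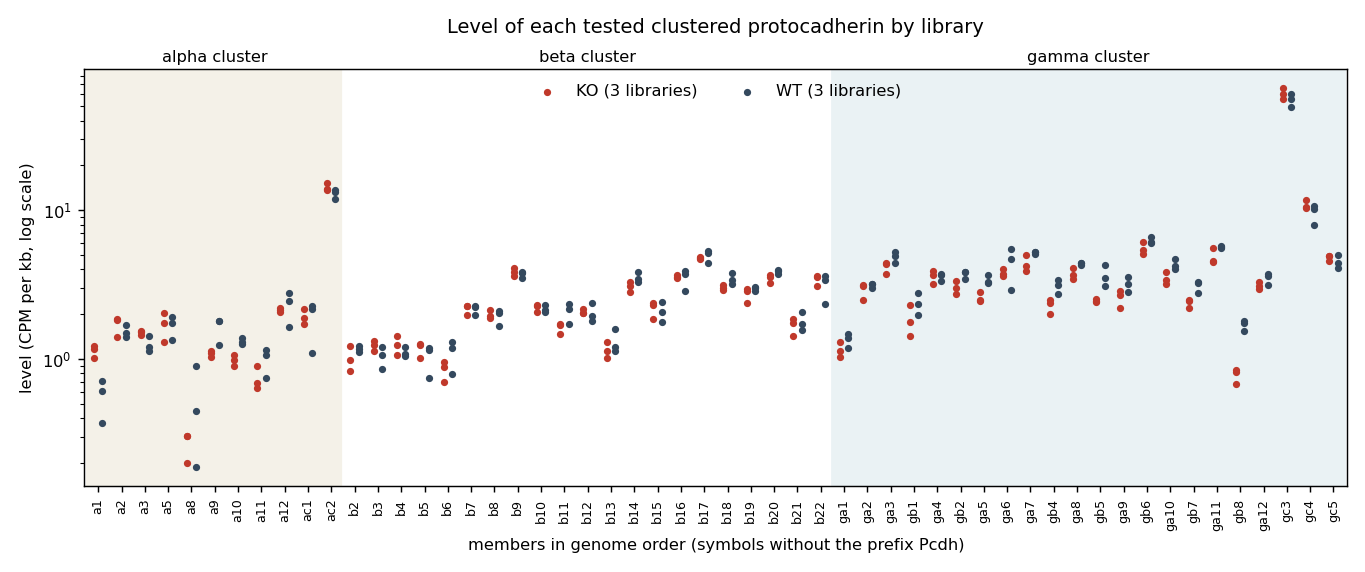
Level of each tested member in CPM per kb (RefSeq span for beta members, unique exon bases for the others) on a log axis, members in genome order, with 1 point for each KO library (left of each pair) and each WT library (right). Pcdhgc3 lies highest at 58.0 CPM per kb over all libraries, and Pcdha8 lowest at 0.389 CPM per kb.

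In the alpha cluster, 1 of 11 tested members rose, 1 fell and 9 did not pass, a share of calls near the 16.7% of all tested genes. The median difference was −0.08, against −0.01 over all tested genes. Pcdha1, the alternate member at the 5′ end, rose, with 2.52, 2.90 and 3.04 CPM in KO libraries and 1.77, 1.52 and 0.930 CPM in WT libraries. Every KO library was above every WT library, and the difference was 0.86 ± 0.20 (edgeR adjusted p = 0.0155). The WT value of 0.930 CPM rests on 6 reads, and without that library the difference was 0.78 (adjusted p = 0.0108). The call was lost when WT replicate 2, KO replicate 2 or KO replicate 3 was left out, with an adjusted p of 0.0581 to 0.0721.

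Pcdha9, an alternate member further downstream, fell, with 2.72, 2.55 and 2.80 CPM in KO libraries and 4.47, 4.46 and 3.10 CPM in WT libraries. The groups did not overlap, and the difference was −0.65 ± 0.15 (edgeR adjusted p = 0.0191). It kept the call in 1 of 6 fits that left out a library, the fit without WT replicate 3, and the highest adjusted p of the other fits of this kind was 0.0847.

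Pcdha8, the lowest tested member of the cluster, had 19, 30 and 31 reads in KO libraries and 76, 36 and 3 reads in WT libraries. In CPM these were 0.493, 0.757 and 0.747 in KO and 2.21, 1.11 and 0.465 in WT libraries, so WT replicate 3 lay below all KO libraries and the other WT libraries above them. The difference of −1.16 ± 0.38 did not pass (edgeR adjusted p = 0.0619). It was −1.32 and passed without WT replicate 3 (adjusted p = 0.0133), and −0.53 without WT replicate 1 (adjusted p = 0.371).

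Along the cluster, the 4 tested alternate members at the 5′ end, from Pcdha1 to Pcdha5, had differences of 0.08 to 0.86, and the 5 from Pcdha8 to Pcdha12 had differences of −1.16 to −0.20. This split was seen after the values were known and was not tested. The 5′ members summed to 13.9, 16.0 and 14.3 CPM in KO libraries and 13.04, 11.7 and 11.9 CPM in WT libraries. The members from Pcdha8 to Pcdha12 summed to 13.4, 12.4 and 13.04 CPM in KO libraries and 19.4, 17.98 and 12.7 CPM in WT libraries. The KO libraries were above all WT libraries in the 5′ sum, while in the downstream sum WT replicate 3 lay among the KO libraries. Pcdha12 had the highest level per kb of the alternate alpha members, 2.21 CPM per kb, and did not pass, with a difference of −0.20 ± 0.15. Of the C-type members, Pcdhac2 had 45.9, 42.3 and 41.4 CPM in KO libraries and 36.2, 41.2 and 40.1 CPM in WT libraries, a difference of 0.14 ± 0.08 that did not pass (edgeR adjusted p = 0.214) although the groups did not overlap. Pcdhac1 averaged 4.91 ± 0.59 CPM in KO and 4.73 ± 1.68 CPM in WT libraries, and the sign of its fitted difference of −0.08 ± 0.19 changed under 3 alternatives.

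Pcdha4, Pcdha6 and Pcdha7 were listed at 0 reads in every library, on both strands. The table also holds a readthrough model beside each of them: Gm37013, Gm38666 and Pcdha7-g run from starts at chr18:36952648, 36967631 and 36973802 to the end of the gamma cluster. The starts of Pcdha4, Pcdha6 and Pcdha7 are at 36952689, 36967625 and 36973811. A read that overlaps exons of more than 1 gene was not counted, and the part of this overlap in the zeros was not tested, so these 3 rows carry no level. Pcdha7-g had 1, 0 and 2 reads in KO libraries and 3, 7 and 0 reads in WT libraries and was too low to test. A count of 0 allows up to 3 reads, which is 0.0723 to 0.465 CPM depending on the library.

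In the beta cluster, none of the 21 tested members passed with edgeR, and none with DESeq2. At an unadjusted p under 0.05 there was 1 of 21, Pcdhb11, named here after its values were seen. It had 6.17, 5.33 and 6.10 CPM in KO libraries and 7.78, 8.48 and 6.20 CPM in WT libraries, a difference of −0.40 ± 0.13 (edgeR adjusted p = 0.058), and it passed without WT replicate 3 (adjusted p = 0.0119). The groups did not overlap, though WT replicate 3 lay next to the KO libraries. The median of the 21 differences was −0.01 to 2 decimals, as over all tested genes, and they ran from −0.40 to 0.18.

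Beta levels were low at the 5′ end. Per kb of RefSeq span, the 5 tested members there, Pcdhb2 to Pcdhb6, were the 5 lowest of the cluster, at 0.971 to 1.18 CPM per kb. Per kb of unique GENCODE exon, a length tried after the data were seen, Pcdhb21 at 1.10 CPM per kb lay below Pcdhb3 and Pcdhb4 at 1.14 and 1.18. The 16 members from Pcdhb7 to Pcdhb22 ran from 1.23 to 4.86 CPM per kb, with a median of 2.52. The order at the top also depends on the length used. Pcdhb17 was the highest by RefSeq span, at 4.86 CPM per kb, but the fourth by GENCODE exon, at 3.41, where Pcdhb9 led at 3.79. Pcdhb17 had 15.6 ± 0.311 CPM in KO and 16.2 ± 1.58 CPM in WT libraries and a difference of −0.08 ± 0.09. Pcdhb9 followed by RefSeq span at 3.79 CPM per kb with a difference of 0.07 ± 0.09, and Pcdhb20 at 3.68 CPM per kb with a difference of −0.14 ± 0.09. Pcdhb6 was the lowest tested member by either length, 0.971 CPM per kb by RefSeq span, with a difference of −0.31 ± 0.20. Pcdhb1 had 4, 0 and 3 reads in KO libraries and 1, 5 and 0 reads in WT libraries, so it was below what could be tested at this depth.

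In the gamma cluster, none of the 22 members rose, 3 fell and 19 missed the threshold, against 10.2% of all tested genes that fell, and the median difference was −0.24. All 3 that fell are A or B members, the alternate types. Every one of the 12 gamma A and 7 gamma B members had a negative difference, from −1.11 to −0.02, while 50.8% of all tested genes had a negative one. Between 17 and 19 of these 19 stayed negative under each alternative. Neighbouring members share a library and a locus, so they are not independent, and 16 of the 19 did not pass one by one. With edgeR 8 gamma members had an unadjusted p under 0.05, and no gamma member rose with DESeq2.

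Pcdhgb8 fell most, with 2.05, 1.69 and 2.10 CPM in KO libraries and 4.39, 3.87 and 4.49 CPM in WT libraries. These are 79, 67 and 87 reads in KO and 151, 125 and 29 reads in WT libraries. The groups were far apart, and the difference was −1.11 ± 0.16 (edgeR adjusted p = 0.00142). The adjusted p ran from 5.5e-05 to 0.0111 over the 12 alternatives. RefSeq lists this gene as a transcribed pseudogene and GENCODE as a polymorphic pseudogene, and at 1.24 CPM per kb it was the lowest gamma member.

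Pcdhgb5 fell too, with 6.25, 6.18 and 6.48 CPM in KO libraries and 8.92, 7.89 and 10.8 CPM in WT libraries. The groups did not overlap, and the difference was −0.50 ± 0.12 (edgeR adjusted p = 0.023). The call was lost in 4 of 6 fits that left out a library, those without WT replicate 1 or any KO replicate, with an adjusted p of 0.0539 to 0.0843.

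Pcdhga5 fell, with 7.18, 6.31 and 6.20 CPM in KO libraries and 8.33, 8.29 and 9.30 CPM in WT libraries. The groups did not overlap, and the difference was −0.38 ± 0.11 (edgeR adjusted p = 0.0442). It passed in 1 of 6 fits that left out a library, the fit without WT replicate 3. DESeq2 gave an adjusted p of 0.0911 and the fit with no low count filter 0.0544, and it passed under 4 of the 12 alternatives, the fewest of the 5 calls.

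The summed levels of the gamma types separated. Gamma A summed to 120, 108 and 100.1 CPM in KO libraries and 127, 128 and 125 CPM in WT libraries, a log2 ratio of −0.22. Gamma B summed to 50.8, 44.6 and 45.2 CPM in KO libraries and 58.1, 60.6 and 64.3 CPM in WT libraries, a log2 ratio of −0.38. In both sums every KO library was below every WT library. The gamma C-type sum went the other way, with 212, 191 and 198 CPM in KO libraries and 170, 184 and 190 CPM in WT libraries and a log2 ratio of 0.14 in which KO replicate 2 and WT replicate 3 lay next to each other. None of the 3 C-type members passed: Pcdhgc3, Pcdhgc4 and Pcdhgc5 had differences of 0.15 ± 0.09, 0.14 ± 0.10 and 0.12 ± 0.10 (edgeR adjusted p of 0.26 to 0.425).

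**Figure D3:**
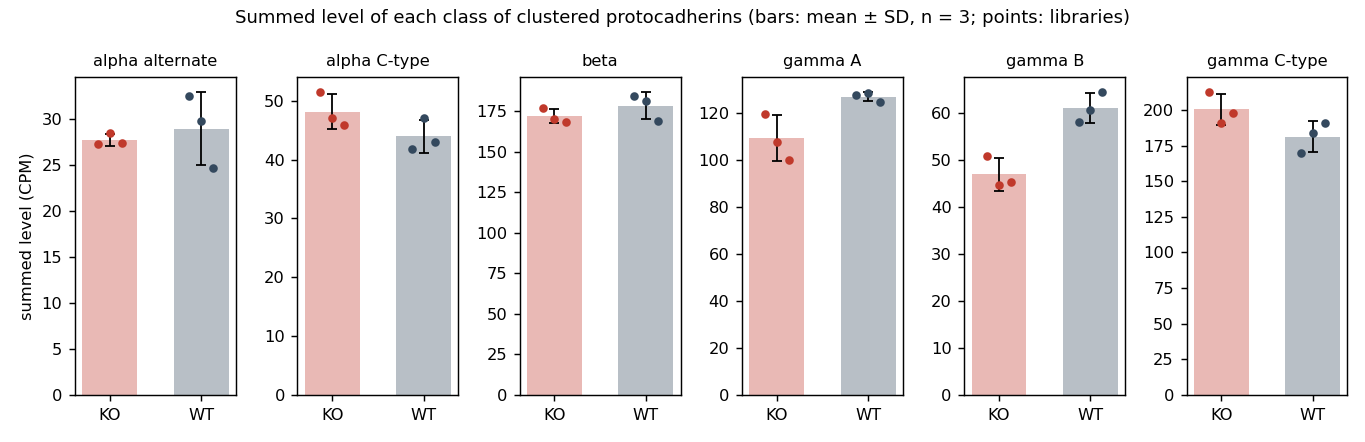
Summed CPM of each class of clustered protocadherins, with the mean and SD as bars (n = 3 libraries each) and each library as a point, KO left of WT. The gamma A and gamma B sums were 109 and 46.9 CPM in KO, below 127 and 61.0 CPM in WT, with no overlap, while the beta and alpha alternate sums overlapped.

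The make-up of the family separated the genotypes, while the ranges of its total overlapped. The C-type members, alpha and gamma, made up 41.3%, 40.4% and 41.7% of the summed level in KO libraries and 34.4%, 36.6% and 37.9% in WT libraries. The means were 41.1% ± 0.671 and 36.3% ± 1.75 (SD, n = 3 each), a difference of 4.83 percentage points, and no KO library overlapped a WT library. It was 3.90 to 5.63 points over the fits that left out a library. Within the gamma cluster the C-type share was 56.3% ± 1.23 in KO and 49.1% ± 1.24 in WT libraries, again without overlap. Within the alpha cluster it was 63.4% ± 1.64 in KO and 60.3% ± 3.72 in WT libraries, and there the groups overlapped. The alternate members Pcdha4, Pcdha6 and Pcdha7 carry no level and entered the alpha and family shares at 0 reads. Any reads they lost would lower the C-type share in these. Library size cancels in these shares.

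Counted gene by gene, KO libraries lay below all WT libraries for 16 of 54 members, or 10 of 22 gamma, 4 of 21 beta and 2 of 11 alpha members. The same held for 20.5% of all tested genes. KO libraries lay above all WT libraries for 3 members, Pcdha1, Pcdha3 and Pcdhac2, against 18.9% of all tested genes. In bulk tissue, fewer cells of a type and less RNA per cell cannot be told apart.

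Several measures moved with genotype beside the larger C-type share. Each alpha or gamma variable exon lies inside introns of the members upstream on the same strand. Unspliced RNA of an upstream member could therefore be counted there. The C-type exons lie furthest downstream, inside introns of all alternate members of their cluster. Reads outside gene exons, which include intronic reads, were lower in KO libraries by the values given above, and their part in the C-type share was not tested. Marker genes of some cell types also differed, where 6.43% of all tested genes rose and 10.2% fell. Of 10 vessel markers 8 fell and none rose, with summed levels of 267 to 277 CPM in KO and 343 to 374 CPM in WT libraries. Of 10 meningeal fibroblast markers 6 fell, with sums of 399 to 419 CPM in KO and 491 to 733 CPM in WT libraries. Of 12 granule neuron markers 2 fell, and all 12 had a negative difference, with a median of −0.28. Their sums overlapped, at 1692 to 2197 CPM in KO and 2010 to 2574 CPM in WT libraries. Of 12 Purkinje cell markers 4 rose, and the sums overlapped, at 5656 to 6892 CPM in KO and 4931 to 5926 CPM in WT libraries. Of 11 interneuron markers 4 rose and 1 fell, with sums of 1346 to 1429 CPM in KO and 1213 to 1248 CPM in WT libraries. Of 8 brainstem neuron markers 4 rose, with sums of 71.8 to 98.8 CPM in KO and 56.7 to 83.6 CPM in WT libraries, which overlapped. Of 10 Bergmann glia and astrocyte markers 1 rose and 1 fell, with sums of 6139 to 6777 CPM in KO and 5578 to 5753 CPM in WT libraries. None of 10 oligodendrocyte markers passed with edgeR, though 5 had an unadjusted p under 0.05 and DESeq2 called 5, and their sums were 27897 to 29955 CPM in KO and 21916 to 25060 CPM in WT libraries. The sums of the vessel, meningeal, interneuron, astrocyte and oligodendrocyte lists did not overlap between genotypes. No marker in these 8 lists was at 0 in any library. Microglia marker sums, at 245 to 262 CPM in KO and 215 to 244 CPM in WT libraries, did not overlap either. Nor did those of granule cell progenitors and cell cycle, at 70.6 to 79.0 CPM in KO and 82.6 to 86.6 CPM in WT libraries. The sums of the unipolar brush cell, choroid plexus and retina lists overlapped. The part of cell make-up in the C-type share was not tested.

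Transcription on the opposite strand is a feature of these clusters. In human neurons, antisense RNA that starts inside alpha variable exons is known to precede activation of the promoter there. Over all genes 1.77% of reads lay on the strand opposite the exons, and over the beta members 0.18%. The alternate alpha members reached 4.71%, 4.33% and 4.78% in KO libraries and 7.31%, 7.16% and 8.09% in WT libraries. All KO libraries were below all WT libraries, on 160 opposite-strand reads in KO and 176 in WT libraries, of which WT replicate 3 gave 14. Reads outside gene exons, also lower in KO, moved the same way, and their part was not tested. The 1.77% over all genes pooled the libraries and was not split by genotype. A shift of whole libraries therefore cannot be told apart here from one in these members. The alpha C-type members went the other way, at 0.374% to 0.575% in KO and 0% to 0.347% in WT libraries. These shares rest on 28 opposite-strand reads in KO and 8 in WT libraries.

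Among genes, the opposite-strand share over all libraries was 16.7% for Pcdha8 and 10.3% for Pcdha3, on 39 and 78 such reads. In the gamma cluster opposite-strand reads collected at the downstream end of the alternate members. The 5 members from Pcdhga10 to Pcdhga12 held 745 such reads, or 8.28% of their reads on both strands, and the 14 from Pcdhga1 to Pcdhgb6 held 130, or 0.537%. This split was drawn after the values were seen and was not tested. Further downstream, the C-type member Pcdhgc3 had 224 such reads in KO and 114 in WT libraries, 1.16% of its reads on both strands. Pcdhgb8, the member with the firmest call, had the highest gamma share, 20.1%, with 82 opposite-strand reads in KO and 53 in WT libraries, beside 233 reads on its own strand in KO and 305 in WT libraries. These are raw reads, and the KO libraries together were deeper, so the own-strand reads were fewer in KO in spite of depth. The opposite-strand reads were not scaled for depth, so their higher raw number in KO does not show a rise. Counted without regard to strand, its difference was −0.87 and still passed (edgeR adjusted p = 0.00433). For all gamma A and B members together the opposite-strand share was 2.61% to 2.82% in KO and 2.25% to 2.56% in WT libraries. Every KO library was thus above every WT library in this share, while the share of the alternate alpha members went the other way. The own-strand sum of gamma A and B was itself lower in KO, at 156 CPM against 188 CPM in WT. A share can rise as own-strand reads fall, so it does not show more opposite-strand reads in KO.

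**Figure D4:**
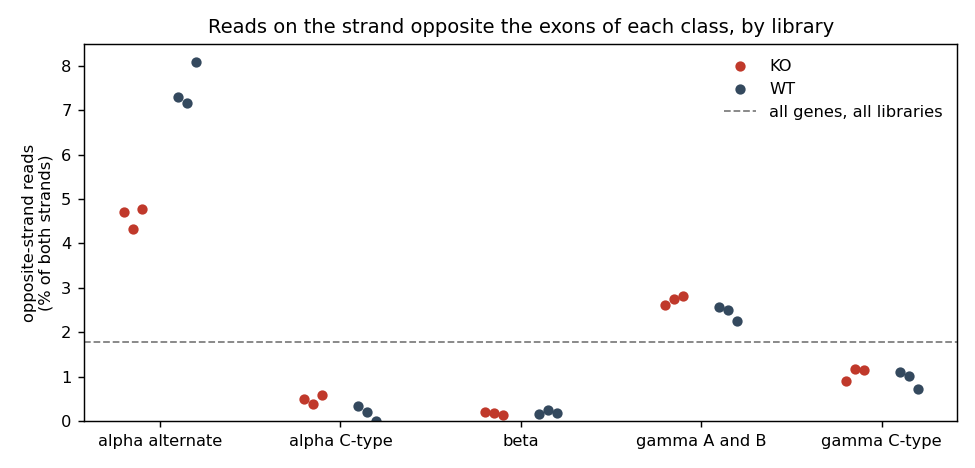
Reads on the strand opposite the exons as a percentage of reads on both strands, for each class and library, KO left of WT. The dashed line marks 1.77%, the share over all genes. Alternate alpha members lie between 4.33% and 4.78% in KO and between 7.16% and 8.09% in WT libraries, and beta members lie near 0.

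Factors that act on these promoters were followed through a list of the insulator protein CTCF and cohesin, which loop cluster promoters to their enhancers. None of its 12 genes rose, 5 fell, against 10.2% of all tested genes, and 7 missed the threshold, and the median was −0.30. At an unadjusted p under 0.05 there were 8, and DESeq2 called none higher either. WT replicate 3 had the highest level of all libraries for every gene of this list but Mau2, where it had the lowest. The part of that library in the median was not tested, and without it 5 genes were lower. Stag1, a cohesin subunit, averaged 62.4 ± 2.92 CPM in KO and 88.1 ± 6.72 CPM in WT libraries (−0.49 ± 0.07). Nipbl, which loads cohesin on DNA, averaged 93.2 ± 5.23 CPM in KO and 132 ± 20.3 CPM in WT libraries (−0.49 ± 0.10). Its WT libraries had 117, 124 and 155 CPM, and the difference ran from −0.57 to −0.37 over the fits that left out a library. Pds5a, a cohesin regulator, differed by −0.38 ± 0.07, and Stag2, the alternative subunit to Stag1, by −0.25 ± 0.06. Stag2 lost its call under 5 of the 12 alternatives. Zfp143, a promoter-binding transcription factor, was the other gene that fell (−0.35 ± 0.10). Ctcf itself had 50.6, 42.5 and 44.7 CPM in KO libraries and 48.1, 51.5 and 65.6 CPM in WT libraries and did not pass (−0.24 ± 0.11, edgeR adjusted p = 0.173). Rad21, the cohesin subunit that closes the ring, had a difference of −0.07 ± 0.08 that did not pass either.

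Of 15 genes for promoter silencing and DNA methylation, 1 rose, 5 fell and 9 missed the threshold, against the same 6.43% and 10.2% of all tested genes, and the median was −0.06. Smchd1, a repressor that acts on the clustered protocadherins in mice, averaged 42.3 ± 2.74 CPM in KO and 59.2 ± 0.51 CPM in WT libraries (−0.48 ± 0.07, edgeR adjusted p = 0.00128). Its partner Lrif1 averaged 12.1 ± 0.537 CPM in KO and 17.4 ± 0.382 CPM in WT libraries (−0.52 ± 0.08). The histone methyltransferase Setdb1, which represses the cluster in mouse neurons, fell too (−0.33 ± 0.06), as did the demethylating enzyme Tet2 (−0.28 ± 0.06). Tet2 lost its call under 5 of the 12 alternatives. Dnmt1, the maintenance methyltransferase, was the fifth gene that fell (−0.26 ± 0.08, edgeR adjusted p = 0.0481). Dnmt3b, which methylates alternate protocadherin promoters in the mouse embryo, averaged 0.904 ± 0.102 CPM in KO and 1.77 ± 0.626 CPM in WT libraries and did not pass (−0.79 ± 0.25, edgeR adjusted p = 0.0577).

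Of 19 binding partners and downstream effectors, 4 rose, 1 fell and 14 missed the threshold, against 6.43% of all tested genes that rose and 10.2% that fell, and the median was 0.07. The receptor kinase Ret, which protocadherins bind, averaged 60.3 ± 1.03 CPM in KO and 48.0 ± 3.37 CPM in WT libraries (0.32 ± 0.07). The inhibitory synapse protein Nlgn2 rose (0.31 ± 0.07). So did the actin regulators Cyfip2 of the WAVE complex (0.26 ± 0.06) and the GTPase Rac1 (0.19 ± 0.06, edgeR adjusted p = 0.0412). The focal adhesion kinase Ptk2, which the cytoplasmic domains of alpha and gamma members inhibit, averaged 68.8 ± 2.36 CPM in KO and 82.8 ± 0.680 CPM in WT libraries and fell (−0.27 ± 0.06). Axin1, the partner of Pcdhgc3, did not pass (−0.12 ± 0.07, edgeR adjusted p = 0.289).

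The delta protocadherins, related adhesion genes that lie outside the clusters, had 1 of 10 higher and 1 lower, near the 16.7% called among all tested genes. Pcdh10 averaged 162 ± 14.2 CPM in KO and 132 ± 12.3 CPM in WT libraries and rose (0.30 ± 0.09, edgeR adjusted p = 0.0415). Its call was lost under 6 of the 12 alternatives. Pcdh9 averaged 353 ± 3.82 CPM in KO and 435 ± 17.0 CPM in WT libraries and fell (−0.30 ± 0.06). The other 8 did not pass.

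Genes around the clusters, within 500 kb, were compared in the same fit. Of 31 tested neighbours, 2 rose, 5 fell and 24 missed the threshold, against 6.43% of all tested genes that rose and 10.2% that fell, and the median was −0.07. Taf7, a general transcription factor subunit, and Slc25a2, a mitochondrial carrier, lie between the beta and gamma clusters, and neither passed (−0.20 ± 0.12 and 0.15 ± 0.36). Ankhd1, an ankyrin repeat protein, averaged 65.5 ± 4.60 CPM in KO and 97.4 ± 9.53 CPM in WT libraries (−0.56 ± 0.08). Pcdh12, a protocadherin of endothelial cells, averaged 1.74 ± 0.114 CPM in KO and 3.58 ± 0.317 CPM in WT libraries (−1.03 ± 0.16), beside the vessel markers given above, whose part was not tested. The translation repressor Eif4ebp3 (−0.72 ± 0.16), the germ cell RNA-binding protein Dnd1 (−0.99 ± 0.23) and Apbb3, a binding protein of the amyloid precursor (−0.31 ± 0.08), fell as well. Zmat2, a splicing factor (0.26 ± 0.08), and Rell2, a relative of a tumour necrosis factor receptor (0.20 ± 0.06), rose.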

How the data were processed

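The deposited files hold counts of reads per gene, not normalized, in 1 file per library; per the submitters' processing notes, reads were trimmed with Trimmomatic and aligned with STAR on mm10. The sources used here do not give their versions, the annotation or the kit's strandedness. Of the strand columns, the heavier was used; summary lines were left out. Reads in more than 1 gene, at most 0.458% of a library, were not counted, nor were reads with several places in the genome, so stretches alike among members are under-counted.

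Groups and replicate numbers came from the sample titles. The filter for low counts was filterByExpr of edgeR, leaving 15519 of 24411 genes. KO and WT were compared with the quasi-likelihood test of edgeR 4.0.16 (R 4.3.3, robust fit, TMM scaling), adjusted by Benjamini-Hochberg, at a threshold of 0.05. The script was tested on simulated data. CPM use the scaled library sizes; SE is the size of the log2 fold change over the square root of F. Levels per kb use exon bases unique to the gene (GENCODE vM21, GRCm38) or, for beta members, the RefSeq span. Positions come from the RefSeq table, which matched 24263 of 24411 symbols. Floors cover counting error only, while SD and SE include the spread between libraries.

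Alternatives were DESeq2 1.42.0, median ratio scaling, no low count filter, counts without regard to strand, Rn45s left out, a replicate block and each library left out. Members, gene lists and tests were chosen with earlier results of these data known. Genes named were all members past the threshold, C-type members, the 3 highest and the lowest per kb in each cluster, up to 4 called genes per other list by p, Taf7 and Slc25a2; Pcdha8, Pcdha3, Pcdhb11 and further list genes were chosen after their values were seen. By itself, 1 of the list genes is not reported here.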

Additional observations from a re-analysis of the deposited data

How the results depend on the processing

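Leaving out Rn45s changed no count of calls for the clusters, lists and neighbours, and median ratio scaling changed 1, silencing genes lower, to 4. Counted without regard to strand, 2 alpha members were lower, 2 delta protocadherins higher, 6 partners higher, 4 silencing genes lower and 1 neighbour higher. With no low count filter, 2 delta protocadherins were higher and 2 gamma members lower. With DESeq2, 2 delta protocadherins and 5 partners were higher, and 2 gamma members, 4 CTCF and cohesin genes, 4 silencing genes and 4 neighbours lower. No pairing by replicate number was seen: deviations of same-numbered libraries had correlations of −0.183, −0.14 and −0.1 over genes. Those of differently numbered libraries ran from −0.007 to 0.126. With 3 libraries per group, these values cannot tell whether same-numbered libraries shared a litter or day. With the replicate block, 252 genes were higher and 821 lower, and Pcdhgb8 was the 1 member called. Under the block the counts were 0 higher and 0 lower for alpha, 1 lower for gamma, 0 higher for delta protocadherins, 3 lower for CTCF and cohesin, 0 higher and 3 lower for silencing genes, 2 higher and 0 lower for partners, and 0 higher and 2 lower for neighbours.

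Over the fits that left out a library, counts ran from 0 to 1 higher and 0 to 2 lower for alpha, 0 to 1 lower for beta, 1 to 4 lower for gamma, 0 to 2 higher and 1 to 2 lower for delta protocadherins, 2 to 5 lower for CTCF and cohesin, 0 to 2 higher and 2 to 6 lower for silencing genes, 1 to 6 higher and 0 to 1 lower for partners, and 0 to 3 higher and 2 to 8 lower for neighbours. Without WT replicate 3 the whole table had 1623 higher and 2096 lower genes, and without a KO library 245 to 356 higher and 796 to 933 lower. The log2 difference of Pcdhac1 reversed to 0.025 under the block, and ran from −0.21 to 0.051 over the fits without a library, reversed without WT replicate 2 and without KO replicate 3 (0.0089). That of Slc25a2 ran from −0.054 (without WT replicate 2) to 0.64. The causes were not tested. Depth limits the alpha members most: WT replicate 3 had 3 to 259 reads for a tested alpha member.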
